A study of Homo sapiens with 9 samples.

Results

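The 9 genes described here encode factors that remove R-loops or keep them from forming, and they were chosen as a list of symbols: RNASEH1, RNASEH2A, RNASEH2B, RNASEH2C, AQR, TOP1, THOC1, THOC2 and XRN2. They were 9 of the 30017 genes in the count table, and all 9 were among the 12712 genes that passed the filter on low counts. The libraries came from MOLM13, a human acute myeloid leukemia cell line with monocytic features. Cells received a GFP-marked pLKO lentivirus with a control hairpin (sh-Control) or with either of 2 hairpins against DDX41, a DEAD-box RNA helicase (shDDX41 #1 and shDDX41 #2), and were sorted on day 4. Each group had 3 libraries, named A, B and D, so every group shared the virus backbone, the sort and the parental line, and by their labels the groups differed in the hairpin. The labels do not say whether the 3 libraries of a group came from separate transductions. The p-values therefore measure only the spread between these libraries, which may be technical.

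An R-loop is a stretch of RNA paired with its template DNA, which leaves the other DNA strand single. RNase H1 and the trimeric RNase H2 cut the RNA of such hybrids, and helicases unwind them. Topoisomerase I relaxes the supercoils behind RNA polymerase that favour them, the THO complex packages the nascent RNA, and the exonuclease XRN2 degrades the RNA downstream of a cleaved transcript. DDX41 itself is known for a part in the control of R-loops, and the comparison asks whether the mRNAs of these other factors differ when DDX41 is low.

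The libraries held 16385238 to 20510032 counts, of which the 9 genes took 0.0875% to 0.115%. The lowest count of any of the 9 in any library was 435, for RNASEH2C, and the highest was 5800, for XRN2. DDX41 was at 113 to 117 CPM (counts scaled to the size of the library) in sh-Control, 9.95 to 12.9 with shDDX41 #1 and 38.9 to 42.5 with shDDX41 #2, so the first hairpin left less DDX41 mRNA than the second (log2 difference -1.79). DDX41 fell by 89.8% with shDDX41 #1 and fell by 64.8% with shDDX41 #2. All 8 myeloid markers examined passed the filter, and their summed level was 1966 to 2019 CPM in sh-Control, 2019 to 2069 with shDDX41 #1 and 2888 to 2915 with shDDX41 #2. LYZ had the most counts of the 8, with 13992 to 36841 per library, followed by FLT3 with 6475 to 8118. The sum therefore follows LYZ above all and does not show that the markers rose as a set. CD2, MS4A1, CDH1, HBB and ALAS2, markers of other cell types, were at 0 in every library. Among libraries of a group, shDDX41 #1 D stood apart from its partners, with a chi-square per degree of freedom over genes of 17.6 and 19.2 against 2.91 between the other two.

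With shDDX41 #1, 5 of the 9 genes differed from sh-Control. RNASEH2A, RNASEH2B, THOC2 and XRN2 fell, and AQR rose. With shDDX41 #2, THOC1 and THOC2 fell and AQR rose. AQR and THOC2 were thus called with the same sign with both hairpins, RNASEH2A, RNASEH2B and XRN2 with shDDX41 #1 alone, THOC1 with shDDX41 #2 alone, and RNASEH1, RNASEH2C and TOP1 with neither. A gene was called when the adjusted p of the edgeR quasi-likelihood test, corrected by the Benjamini-Hochberg method over all genes tested, was under 0.05. Levels in RNA of whole sorted populations cannot tell fewer cells of a type from less RNA per cell.

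These counts stood against a broad response in the rest of the table. With shDDX41 #1, 47.8% of all tested genes were called, 23.7% higher and 24.1% lower, beside 5 of the 9, 1 higher and 4 lower. With shDDX41 #2, 25.0% of all tested genes were called, 11.6% higher and 13.4% lower, beside 3 of the 9, 1 higher and 2 lower. Without shDDX41 #2 A, B or D, 17.6%, 15.9% and 16.5% of the genes tested were called in either direction, and without sh-Control B 17.8%. In each of these cases 1 of the 9 was called. Without shDDX41 #1 D the share rose to 32.9%, beside 3 of the 9. Between the hairpins, 48.8% of all tested genes were called, 24.6% higher and 24.2% lower with shDDX41 #1, beside 4 of the 9, all lower (0 higher at an unadjusted p under 0.05 by edgeR, DESeq2 or limma voom). The share of the 9 that was called in either direction therefore lay near the share of all genes in each comparison. The median log2 fold change of the 9 was -0.19, -0.08 and -0.11 in these 3 comparisons, where that of all tested genes was 0.01, -0.01 and 0.01. The libraries of the groups compared did not overlap for 5, 6 and 4 of the 9 genes, beside 53.1%, 43.8% and 57.7% of all genes. Both comparisons with sh-Control use the same 3 control libraries, so a gene's results in them are not independent of each other.

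**Figure D1:**
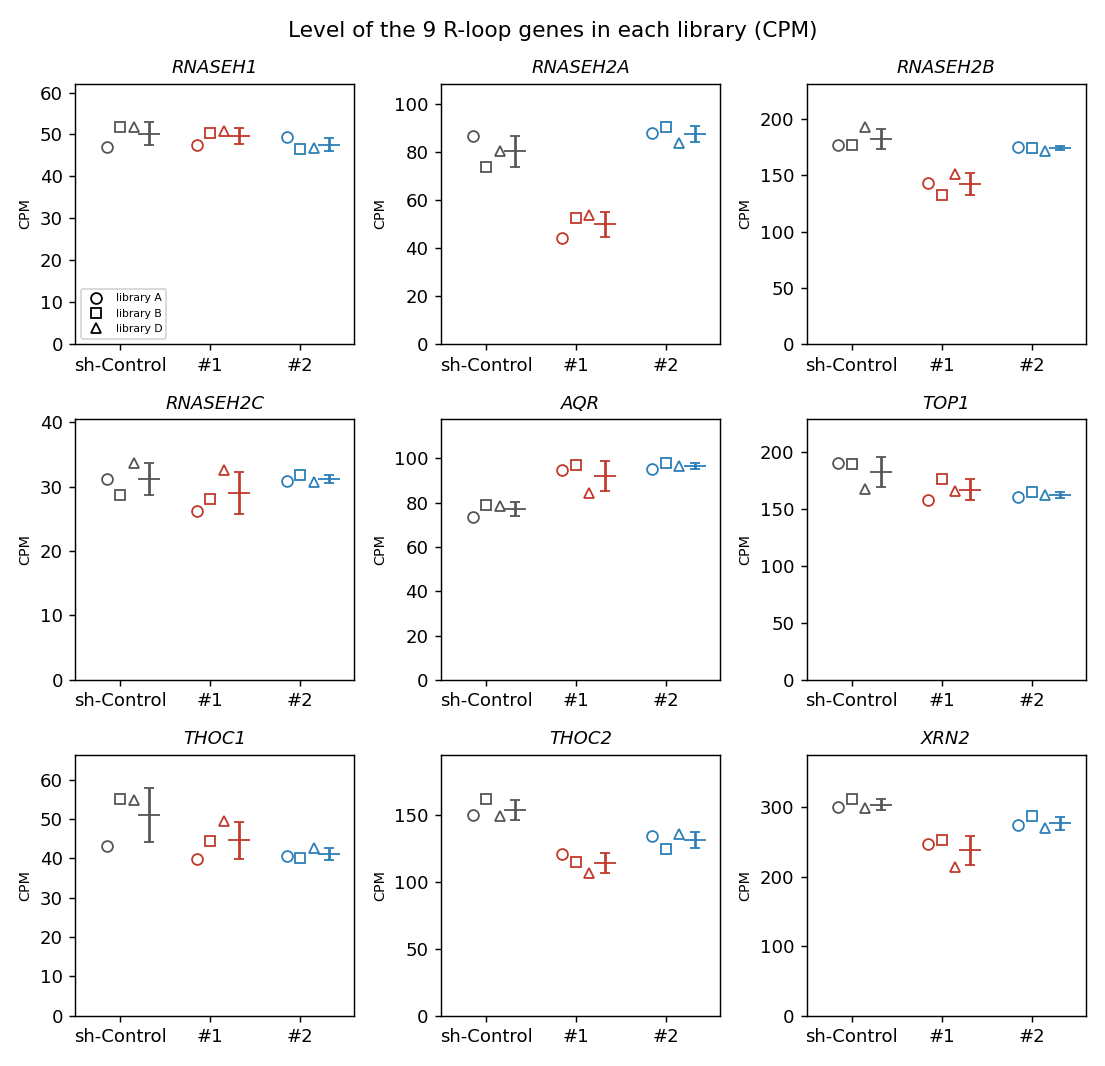
CPM of each of the 9 genes (vertical axes, from 0) in each library of sh-Control, shDDX41 #1 and shDDX41 #2 (horizontal axes). Open symbols are libraries A, B and D, and the bar beside them is the mean with its SD over 3 libraries. RNASEH2A sits at 43.9 to 53.4 CPM with shDDX41 #1, below all libraries of the other groups, and AQR sits higher with both hairpins than in sh-Control.

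**Figure D2:**
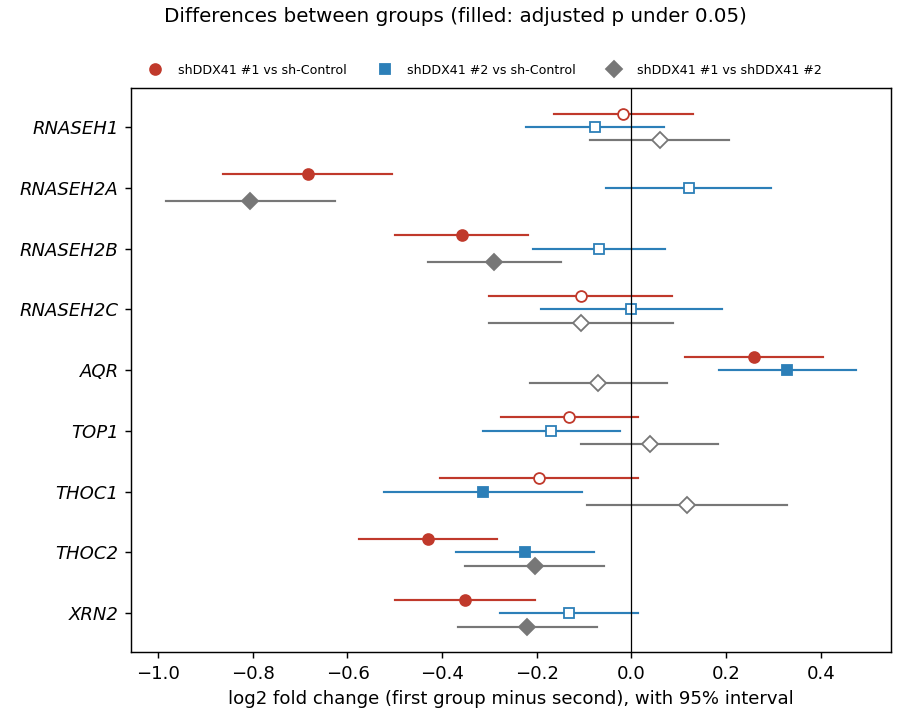
Log2 fold change (horizontal axis) of each of the 9 genes with its 95% interval in the 3 comparisons. Filled symbols are called genes. The largest difference among the 9 is that of RNASEH2A between the hairpins (-0.81), and the intervals of RNASEH1 and RNASEH2C span 0 in all 3 comparisons.

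Sequences before the start sites of the 4 genes that fell with shDDX41 #1, RNASEH2A, RNASEH2B, THOC2 and XRN2, are given here because these genes moved the same way with that hairpin. Each is the 250 bases upstream of the RefSeq start (GRCh38.p14), 5′ to 3′ on the gene's strand, with the letters that matched a searched motif in capitals. The windows lie at chr19:12806334-12806583 (plus strand), chr13:50909428-50909677 (plus strand), chrX:123733053-123733302 (minus strand) and chr20:21303081-21303330 (plus strand).
RNASEH2A: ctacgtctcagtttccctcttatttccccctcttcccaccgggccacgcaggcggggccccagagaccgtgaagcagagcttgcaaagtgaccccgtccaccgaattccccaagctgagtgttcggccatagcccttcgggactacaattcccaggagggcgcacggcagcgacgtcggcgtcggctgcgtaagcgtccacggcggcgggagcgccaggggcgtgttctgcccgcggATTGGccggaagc
RNASEH2B: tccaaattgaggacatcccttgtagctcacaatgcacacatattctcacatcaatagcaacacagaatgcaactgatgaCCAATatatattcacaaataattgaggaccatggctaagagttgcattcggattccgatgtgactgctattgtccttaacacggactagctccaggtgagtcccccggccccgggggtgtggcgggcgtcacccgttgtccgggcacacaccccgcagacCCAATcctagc
THOC2: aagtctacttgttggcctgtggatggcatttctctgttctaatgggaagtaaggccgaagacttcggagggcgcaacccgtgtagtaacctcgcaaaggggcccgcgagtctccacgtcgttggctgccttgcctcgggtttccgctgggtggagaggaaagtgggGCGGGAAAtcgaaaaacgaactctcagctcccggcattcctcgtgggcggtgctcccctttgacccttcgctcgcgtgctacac
XRN2: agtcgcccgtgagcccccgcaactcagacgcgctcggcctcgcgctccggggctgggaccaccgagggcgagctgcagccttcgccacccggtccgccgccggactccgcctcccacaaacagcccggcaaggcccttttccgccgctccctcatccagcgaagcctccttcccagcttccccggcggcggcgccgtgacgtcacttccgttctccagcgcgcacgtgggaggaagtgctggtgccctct
The motifs searched on both strands were the CCAAT box (CCAAT), an E2F-type site (TTTCCCGC, TTTGGCGC, TTTCGCGC or TTTGCCGC) and the cell cycle homology region (TTTGAA). RNASEH2A held 1 CCAAT box, read on the opposite strand 13 to 9 bases before the RefSeq start. By GENCODE v29 the gene starts at 12806556, inside this window, so there the CCAAT box lies within the gene. The windows of XRN2 and THOC2 also run past their GENCODE starts. RNASEH2B held 2, at 171 to 167 and 11 to 7 bases before the start. THOC2 held an E2F-type site on the opposite strand 84 to 77 bases before the start. Of the 35116 windows of this length in the RefSeq table, 32% held a CCAAT box, 2.79% an E2F-type site and 13.3% the TTTGAA element. XRN2 and the other genes of the 9 held none of the 3 motifs in their windows, and TTTGAA was in no window of the 9 genes. These are matches of letters only.

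RNASEH2A encodes the catalytic subunit of RNase H2, the enzyme that cuts RNA in hybrids and also removes single ribonucleotides from DNA. It lies at chr19:12806556-12815201 on the plus strand (GRCh38, GENCODE v29). Its level was 86.6, 73.6 and 80.4 CPM in sh-Control (in the order A, B, D, as for each gene that follows), 43.9, 52.3 and 53.4 CPM with shDDX41 #1, and 87.7, 90.2 and 83.6 CPM with shDDX41 #2. The 3 libraries of shDDX41 #1 were below every other library, while those of sh-Control and shDDX41 #2 overlapped. RNASEH2A fell by 37.8% with shDDX41 #1 (log2 fold change -0.68, SE 0.0839, edgeR adjusted p = 1.09e-05). With shDDX41 #2 its log2 fold change was 0.12, with an interval from -0.05 to 0.30 and an edgeR adjusted p of 0.301. Between the hairpins, RNASEH2A was lower with shDDX41 #1 by a log2 difference of -0.81 (SE 0.0838, edgeR adjusted p = 2.05e-06), the largest difference of the 9 genes in any comparison. A list of 43 S phase genes was also lower with shDDX41 #1. With that hairpin, 42 of the 43 fell, with a median log2 fold change of -0.82, where 24.1% of all tested genes fell. With shDDX41 #2, 8 fell and 0 rose, with a median of -0.09, where 13.4% of all tested genes fell. RNASEH2A did not fall with shDDX41 #2. The summed level of the S phase list was 7112 to 7501 CPM in sh-Control, 3780 to 4202 with shDDX41 #1 and 6602 to 6892 with shDDX41 #2. Its shDDX41 #2 libraries were thus all below those of sh-Control. The part of these S phase genes in the RNASEH2A result was not tested.

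RNASEH2B encodes a scaffold subunit of RNase H2, which also binds the DNA clamp PCNA, and lies at chr13:50909678-51024120 on the plus strand. It was at 177, 177 and 193 CPM in sh-Control, 143, 133 and 152 CPM with shDDX41 #1, and 175, 175 and 172 CPM with shDDX41 #2. With shDDX41 #1 all 3 libraries were below the other 6. Those of shDDX41 #2 were also below those of sh-Control, but by less than 2 CPM at the nearest pair. RNASEH2B fell with shDDX41 #1 (log2 fold change -0.36, SE 0.0659, edgeR adjusted p = 4.17e-04) and was lower with shDDX41 #1 than with shDDX41 #2 (log2 -0.29, edgeR adjusted p = 0.00204). For shDDX41 #2 against sh-Control the log2 fold change was -0.07, with an interval from -0.21 to 0.07.

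RNASEH2C encodes the remaining scaffold subunit of RNase H2, at chr11:65714005-65720947 on the minus strand. Its levels were the lowest of the 9 genes in CPM, at 31.2, 28.7 and 33.7 in sh-Control, 26.2, 28.1 and 32.6 with shDDX41 #1, and 31.0, 31.8 and 30.8 with shDDX41 #2. The 3 groups overlapped. No comparison passed the test, and the interval of the log2 fold change was -0.30 to 0.09 with shDDX41 #1 and -0.19 to 0.19 with shDDX41 #2. RNASEH2C shares 800 bases of exon with KAT5 on the opposite strand. KAT5 had 928 to 1330 counts per library against 435 to 642 for RNASEH2C, so the RNASEH2C counts are uncertain if strand was not used in counting.

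The ratio of 2 RNase H2 mRNAs within a library does not depend on how libraries are scaled. Ratios over RNASEH2C do carry the uncertainty of its counts from the overlap with KAT5. RNASEH2A had 2.58 ± 0.196 counts for each RNASEH2C count in sh-Control (SD, n = 3), 1.73 ± 0.118 with shDDX41 #1 and 2.79 ± 0.0676 with shDDX41 #2. For each RNASEH2B count it had 0.440 ± 0.0422 counts in sh-Control, 0.351 ± 0.0434 with shDDX41 #1 and 0.501 ± 0.0152 with shDDX41 #2. For both ratios the libraries of shDDX41 #1 were below all others. RNASEH2B had 5.87 ± 0.280 counts for each RNASEH2C count in sh-Control, 4.94 ± 0.443 with shDDX41 #1 and 5.58 ± 0.0890 with shDDX41 #2. An exact two-sided permutation test gave p = 0.1 for shDDX41 #1 against either other group in each of these 3 ratios, the smallest p that 3 against 3 libraries allow, so none of them can pass a threshold of 0.05. Against sh-Control, the same exact test for shDDX41 #2 gave p = 0.2 for both RNASEH2A ratios and 0.1 for RNASEH2B over RNASEH2C.

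**Figure D3:**
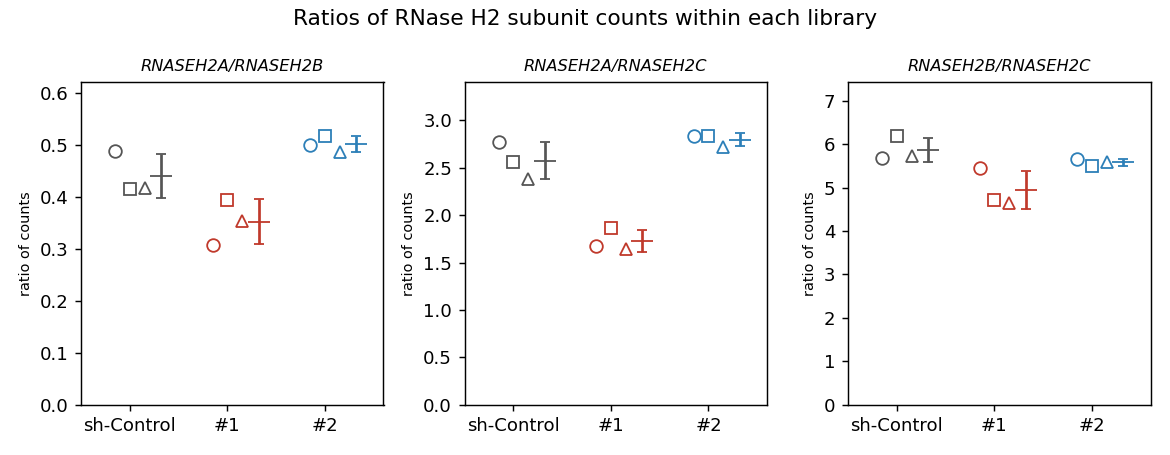
Ratio of the counts of RNase H2 subunit genes within each library (vertical axes, from 0) by group (horizontal axes). Open symbols are libraries (circle A, square B, triangle D), and bars are the mean and SD over 3 libraries. The RNASEH2A to RNASEH2C ratio averaged 1.73 with shDDX41 #1 against 2.58 in sh-Control and 2.79 with shDDX41 #2. RNASEH2C counts are uncertain if strand was not used in counting. The RNASEH2A to RNASEH2B ratio averaged 0.351 with shDDX41 #1, 0.440 in sh-Control and 0.501 with shDDX41 #2.

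RNASEH1 encodes the single-subunit RNase H that cuts longer hybrids in the nucleus and in mitochondria, and lies at chr2:3544793-3558616 on the minus strand. It was at 47.0, 51.8 and 51.8 CPM in sh-Control, 47.4, 50.4 and 50.9 CPM with shDDX41 #1, and 49.3, 46.5 and 46.8 CPM with shDDX41 #2. The groups overlapped, and the log2 fold change was -0.02 (interval -0.16 to 0.13) with shDDX41 #1 and -0.08 (interval -0.22 to 0.07) with shDDX41 #2. Its antisense gene RNASEH1-AS1, which shares 125 bases of exon with it, had 136 to 200 counts per library, against 773 to 983 for RNASEH1.

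AQR (Aquarius) encodes a helicase of the spliceosome's intron-binding complex whose loss is known to raise R-loops, and lies at chr15:34851782-34969839 on the minus strand. It was the member that rose with both hairpins. Its level was 73.3, 78.8 and 78.7 CPM in sh-Control, 94.9, 97.1 and 84.4 CPM with shDDX41 #1, and 95.3, 98.0 and 96.8 CPM with shDDX41 #2. All 6 knockdown libraries were above all 3 control libraries, the nearest being shDDX41 #1 D. The log2 fold change was 0.26 with shDDX41 #1 (SE 0.0683, edgeR adjusted p = 0.00567) and 0.33 with shDDX41 #2 (SE 0.0681, edgeR adjusted p = 0.00273). The hairpins differed by a log2 value of -0.07, with an interval from -0.21 to 0.07, although DDX41 itself was lower with shDDX41 #1. The log2 fold changes correspond to rises of 19.7% and 25.7%.

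The intron-binding complex holds other proteins beside AQR. Of its 4 other listed genes, 3 rose with shDDX41 #1 (median log2 fold change 0.31) and with shDDX41 #2 none was called by edgeR, DESeq2 or limma voom (median 0.06), with 0 at an unadjusted p under 0.05 by any of these tools. Over all tested genes, 23.7% were called higher with shDDX41 #1 and 11.6% with shDDX41 #2. In this list ZNF830 rose most clearly, from 23.1 ± 1.68 to 38.2 ± 6.16 CPM with shDDX41 #1 (log2 0.73, edgeR adjusted p = 6.07e-05). ISY1 (log2 0.40) and PPIE (log2 0.22) were the others called with shDDX41 #1, and XAB2 (log2 0.06) was not called. ISY1, PPIE and XAB2 are named after their values were seen, to complete this short list.

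TOP1 encodes topoisomerase I, at chr20:41028818-41124487 on the plus strand. It was at 191, 190.1 and 168 CPM in sh-Control, 158, 177 and 166 CPM with shDDX41 #1, and 161, 165 and 162 CPM with shDDX41 #2. The shDDX41 #2 libraries were below the 3 controls and the shDDX41 #1 libraries overlapped them, with sh-Control D nearest to both. Neither difference passed the test (log2 -0.13, edgeR adjusted p = 0.124, and log2 -0.17, edgeR adjusted p = 0.0800). Without sh-Control D, both passed, at edgeR adjusted p values of 0.0377 and 0.0317. Of a list of 5 other topoisomerase genes and TDRD3, the tudor-domain partner of TOP3B, 2 rose and 1 fell with shDDX41 #1, and none of the 6 was called with shDDX41 #2 by edgeR, DESeq2 or limma voom, with 0 at an unadjusted p under 0.05 by any of these tools. The shares of all tested genes called were 47.8% with shDDX41 #1 and 25.0% with shDDX41 #2. TOP2A, the topoisomerase II of dividing cells, fell from 555 ± 46.4 to 291 ± 20.5 CPM with shDDX41 #1 (log2 -0.93, edgeR adjusted p = 1.23e-07). TDRD3 rose with the same hairpin (log2 0.47, edgeR adjusted p = 0.00130). TOP3B, named after its values were seen, was the other gene that rose (log2 0.30), although its libraries overlapped those of sh-Control.

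THOC1 and THOC2 encode core subunits of THO, the complex that loads the export machinery on nascent mRNA. THOC2, its largest scaffold, lies at chrX:123600561-123733056 on the minus strand. It was at 150.1, 162 and 149 CPM in sh-Control, 121, 115 and 107 CPM with shDDX41 #1, and 134, 125 and 136 CPM with shDDX41 #2. The 3 groups did not overlap at any point, with sh-Control highest and shDDX41 #1 lowest. THOC2 fell by 25.8% with shDDX41 #1 (log2 -0.43, SE 0.0688, edgeR adjusted p = 1.27e-04) and fell by 14.5% with shDDX41 #2 (log2 -0.23, SE 0.0684, edgeR adjusted p = 0.0253). Between the hairpins the log2 difference was -0.20 (edgeR adjusted p = 0.0231). The call with shDDX41 #2 was lost without sh-Control B (edgeR adjusted p = 0.128) and without shDDX41 #2 A, B or D (0.0595, 0.124 and 0.0523), and the call between the hairpins without shDDX41 #1 D (0.0559) or shDDX41 #2 A or D (0.0820 and 0.0901).

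THOC1 lies at chr18:214520-268050 on the minus strand. Its levels were 43.2, 55.2 and 54.8 CPM in sh-Control, 40.0, 44.4 and 49.5 CPM with shDDX41 #1, and 40.5, 40.1 and 42.8 CPM with shDDX41 #2. The controls were spread, and sh-Control A lay within the range of shDDX41 #1 and just above that of shDDX41 #2. THOC1 fell with shDDX41 #2 (log2 -0.31, SE 0.0982, edgeR adjusted p = 0.0299), and with shDDX41 #1 its log2 fold change was -0.19 (edgeR adjusted p = 0.115). The difference between the hairpins itself was 0.12, with an interval from -0.09 to 0.33, so the call with 1 hairpin alone does not show that they differ. The fall with shDDX41 #2 was lost without sh-Control B or D (edgeR adjusted p = 0.125 and 0.104) and without shDDX41 #2 A, B or D (0.0895, 0.105 and 0.0590). With shDDX41 #1, THOC1 was called without sh-Control A (0.0135), without shDDX41 #1 D (0.0247) and with the replicate letter as a block (0.0492). THOC1 shares 109 bases of exon with USP14 on the opposite strand, which had 1762 to 2590 counts per library.

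Of 13 tested partners of THO in mRNA export, 3 rose and 2 fell with shDDX41 #1, and 3 fell with shDDX41 #2, where 0 rose by edgeR, DESeq2 or limma voom and 0 were higher at an unadjusted p under 0.05. Beside these, 47.8% of all tested genes were called with shDDX41 #1 and 25.0% with shDDX41 #2. POLDIP3, an adaptor that links splicing to export, rose from 118 ± 6.48 to 162 ± 20.2 CPM with shDDX41 #1 (edgeR adjusted p = 3.61e-04), and the THO subunit THOC3 fell (log2 -0.37, edgeR adjusted p = 0.00484). DDX39A, an export helicase, fell with shDDX41 #2 (log2 -0.29, edgeR adjusted p = 0.00504). Between the hairpins, CHTOP was higher with shDDX41 #1 (139 ± 2.79 against 97.2 ± 1.86 CPM, edgeR adjusted p = 4.63e-06) and THOC6 was lower (log2 -0.30, edgeR adjusted p = 0.0177). The list's helicase DDX39B had 0 to 6 counts in a library and was not tested. That is low for a helicase in general use, and whether it reflects expression or the assignment of reads was not tested.

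XRN2 encodes the nuclear 5′ to 3′ exonuclease, at chr20:21303304-21389827 on the plus strand. It was at 300.5, 312 and 298 CPM in sh-Control, 247, 253 and 214 CPM with shDDX41 #1, and 274, 288 and 270 CPM with shDDX41 #2. As for THOC2, the 3 groups did not overlap and kept the order sh-Control, shDDX41 #2, shDDX41 #1 from high to low. XRN2 fell with shDDX41 #1 (log2 -0.35, SE 0.0691, edgeR adjusted p = 7.07e-04). With shDDX41 #2 the log2 fold change was -0.13, with an interval from -0.28 to 0.01 and an edgeR adjusted p of 0.178. The hairpins differed by a log2 value of -0.22 (edgeR adjusted p = 0.0160), which was lost without shDDX41 #2 B (0.0739).

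Among 10 genes that act with XRN2 in termination or RNA decay, 2 rose and 5 fell with shDDX41 #1, and 1 rose and 2 fell with shDDX41 #2. Beside these 10, 47.8% of all tested genes were called with shDDX41 #1 and 25.0% with shDDX41 #2. PCF11, a cleavage and termination factor, rose from 76.2 ± 5.42 to 115 ± 10.4 CPM with shDDX41 #1 (log2 0.60, edgeR adjusted p = 3.03e-05). TTF2, a termination factor that acts on RNA polymerase II, fell with the same hairpin (log2 -0.83, edgeR adjusted p = 1.94e-05). XRN1, the cytoplasmic relative of XRN2, rose with shDDX41 #2 (log2 0.39, edgeR adjusted p = 0.0135), and RPRD1B fell (log2 -0.36, edgeR adjusted p = 0.00463). RPRD1B also fell with shDDX41 #1 (log2 -0.59, edgeR adjusted p = 3.56e-05). NKRF, which binds XRN2, was higher with shDDX41 #1 than with shDDX41 #2 (log2 0.57, edgeR adjusted p = 8.09e-06), and the cleavage factor subunit CPSF1 was lower (log2 -0.52, edgeR adjusted p = 5.46e-05).

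Over all 53 tested genes of the 6 other pathway lists, 32 were called with shDDX41 #1 (13 higher and 19 lower), 10 with shDDX41 #2 (3 higher and 7 lower) and 36 between the hairpins (15 higher and 21 lower). Their median log2 fold changes were -0.09, -0.08 and -0.09. Of all tested genes, 47.8%, 25.0% and 48.8% were called in these 3 comparisons. These shares are the background for the counts of each list. Of 14 other helicases that act on R-loops, 8 fell and 2 rose with shDDX41 #1, and 2 fell and 1 rose with shDDX41 #2. The Fanconi helicase BRIP1 fell from 31.2 ± 0.901 to 13.9 ± 3.01 CPM with shDDX41 #1 (log2 -1.17, edgeR adjusted p = 1.84e-06) and DDX19A rose (log2 0.17, edgeR adjusted p = 0.0299). DDX21, a nucleolar helicase that unwinds R-loops, fell from 871 ± 28.4 to 638 ± 12.6 CPM with shDDX41 #2 (log2 -0.45, edgeR adjusted p = 7.26e-05), and RECQL5 rose (log2 0.39, edgeR adjusted p = 0.0102). RECQL5 also rose with shDDX41 #1 (log2 0.28, edgeR adjusted p = 0.0355). DDX21 was higher with shDDX41 #1 than with shDDX41 #2 (log2 0.38, edgeR adjusted p = 8.41e-05).

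Of 6 genes for ribonucleotide excision or nucleic acid clearance, 3 fell and 1 rose with shDDX41 #1, and 1 rose with shDDX41 #2. These include the partners that complete the repair RNase H2 begins. The shares called over all tested genes were 47.8% with shDDX41 #1 and 25.0% with shDDX41 #2. LIG1, the ligase that seals the nick, fell with shDDX41 #1 (log2 -0.78, edgeR adjusted p = 3.66e-07), as did the flap nuclease FEN1 (log2 -0.67, edgeR adjusted p = 3.97e-06). The clamp PCNA was lower with shDDX41 #1 than with shDDX41 #2 (335 ± 15.1 against 577 ± 16.1 CPM, edgeR adjusted p = 5.08e-07). FEN1 and PCNA, and BLM and BRIP1 among the helicases, also belong to the S phase list. SAMHD1, a dNTP hydrolase that also acts at stalled forks, was called in all 3 comparisons. Its level was 65.9 ± 4.29 CPM in sh-Control, 153 ± 6.90 with shDDX41 #1 and 106 ± 7.57 with shDDX41 #2, with log2 fold changes of 1.21 and 0.68 (edgeR adjusted p = 1.24e-08 and 1.44e-05) and a difference between the hairpins of 0.53 (2.72e-05).

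**Figure D4:**
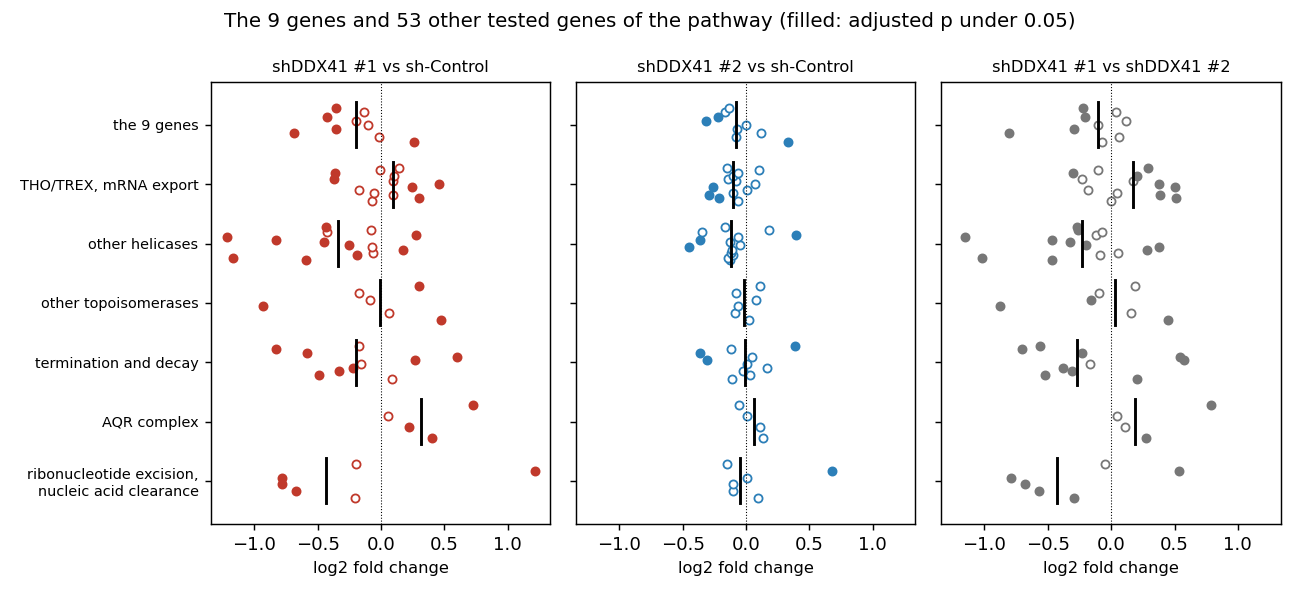
Log2 fold change (horizontal axes) of the 9 genes and of the 53 other tested genes of the pathway, by list (vertical axis), in the 3 comparisons. Each circle is a gene, filled when called, and each vertical bar is a list's median. The 9 genes span -0.68 to 0.26 with shDDX41 #1 and -0.31 to 0.33 with shDDX41 #2, and most called genes of the other lists are in the comparisons that hold shDDX41 #1.

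Levels can be compared between genes only per length. Per kilobase of the principal transcript (APPRIS tag in GENCODE v29), the order in sh-Control from high to low was RNASEH2B, XRN2, TOP1, RNASEH2A, THOC2, RNASEH1, THOC1, RNASEH2C and AQR. RNASEH2B was at 112 ± 5.55 CPM per kilobase, XRN2 at 88.3 ± 2.16, TOP1 at 48.9 ± 3.48, RNASEH2A at 29.1 ± 2.37, RNASEH2C at 11.2 ± 0.901 and AQR at 7.94 ± 0.323. The ranges over libraries of RNASEH2A, THOC2 and RNASEH1 overlapped, as did those of RNASEH1 and THOC1. Genes are measured in the same libraries, so overlapping ranges do not show whether they differ. Differences between genes were not tested. The first place of RNASEH2B depends on the length used. Over all 12159 bases of its annotated exons, in place of the 1629 of the principal transcript, it was at 15.01 CPM per kilobase and in rank 7. RNASEH2A was in rank 4 in sh-Control and with shDDX41 #2 and in rank 7 with shDDX41 #1, at 18.1 ± 1.89 CPM per kilobase. With shDDX41 #1 its libraries overlapped those of THOC2 and THOC1, and over all annotated exons its ranks in sh-Control, with shDDX41 #2 and with shDDX41 #1 were 3, 3 and 5.

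RNASEH2A and THOC2 had the smallest p over the 3 groups among the 9 genes. The genes with the level pattern most like that of RNASEH2A over the 9 libraries were MEA1 (Pearson r = 0.994), FN3KRP (r = 0.994) and SDHA (r = 0.988). For THOC2 they were BMP2K (r = 0.996), SLC4A11 (r = 0.984) and LINC00263 (r = 0.984). These values are a description over 9 libraries in 3 groups that share their scaling. The genes are the highest of all tested genes, and r does not measure the size of a change. With shDDX41 #1 the log2 fold changes of MEA1, FN3KRP and SDHA were -0.61, -0.48 and -0.19, against -0.68 for RNASEH2A. Those of BMP2K, SLC4A11 and LINC00263 were -0.61, -0.57 and -1.59, against -0.43 for THOC2.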

How the data were processed

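RNA-seq was performed on 9 libraries of MOLM13 cells, 3 each of sh-Control, shDDX41 #1 and shDDX41 #2, and groups were taken from the labels. The deposited table held whole-number read counts per gene symbol, not normalized, made by the authors. The submitters' processing notes name FastQC 0.11.7, HISAT2 2.0.5 and featureCounts 1.5.2, and list a human and a mouse genome build without saying which was used here. The annotation and the strand setting are not given in the sources used here. The labels describe a stranded library kit and the study's methods an unstranded one, so counts of genes with an opposite-strand overlap are uncertain.

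The counts were tested with edgeR 4.0.16 in R 4.3.3. filterByExpr (minimum count 10) kept 12712 genes, 42.3% of the table, and libraries were scaled by TMM. A quasi-likelihood model with 1 term per group was fitted to all 9 libraries, and the two-sided p-values of each of 3 contrasts were adjusted by the Benjamini-Hochberg method over all tested genes. Intervals are at 95%. The biological coefficient of variation was 0.0768. Levels are CPM with TMM-scaled totals. The fit was tested on simulated data. Alternatives used DESeq2 1.42.0, limma 3.58.1 (voom), other scalings and filters, a replicate block, each library left out, and a stricter threshold.

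Coordinates and lengths came from GENCODE v29 (GRCh38), joined by symbol. Promoter windows came from RefSeq (GRCh38.p14), where all 9 genes matched, with 11 windows. RNASEH2B and XRN2 had a further start, whose windows are not printed.

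The 9 genes, the 6 pathway lists, the S phase list and the markers were chosen with earlier results of these data known. The 9 genes and DDX41 were named whatever their result. From each pathway list and contrast, the called gene with the smallest adjusted p in each direction was named, together with genes shared by the S phase list and a pathway list. For the 2 genes with the smallest p over the 3 groups, the 3 most correlated genes (log2 CPM, prior count 2) were named. The T cell markers summed to at most 2.18 CPM in a library, the B cell markers to at most 1.26 and the epithelial markers to at most 0.121. The result of 1 marker gene is not reported here.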

Additional observations from a re-analysis of the deposited data

Results flagged for a closer look

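For RNASEH2A the difference between the hairpins was itself called. Its log2 fold change was -0.68 with shDDX41 #1 and 0.12 with shDDX41 #2, of which only the first was called, and the test of the difference between the hairpins gave -0.81 (edgeR adjusted p = 2.05e-06), with all 3 libraries of shDDX41 #1 lower than all 3 of shDDX41 #2. In 17 alternatives this difference ranged from -0.86 to -0.73 and was called in each. No other gene of the 9 had opposite signs with a called difference between the hairpins. The list of 43 S phase genes was also lower with shDDX41 #1 than with shDDX41 #2. Of these, 41 were called lower and 1 higher (median -0.78), beside 24.2% and 24.6% of all tested genes. The part of the S phase genes in this RNASEH2A difference was not tested.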

How the results depend on the processing

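The values below cover 17 alternative fits and a stricter threshold. RNASEH2A, RNASEH2B, AQR, THOC2 and XRN2 with shDDX41 #1, and AQR with shDDX41 #2, were called in all 17 fits. Of the 9 genes, 5 to 6 were called with shDDX41 #1 when 1 library at a time was left out, 1 to 3 with shDDX41 #2, and 3 to 4 between the hairpins. In the same fits, 41.5% to 48.5%, 15.9% to 32.9% and 40.1% to 49.0% of all tested genes were called. The single call with shDDX41 #2, AQR, was what was left without sh-Control B or without shDDX41 #2 A, B or D, and also at an adjusted p under 0.01, where 2 of the 9 were called between the hairpins. Of the other pathway genes, 6 to 12 were called with shDDX41 #2 when 1 library was left out, and 5 at an adjusted p under 0.01. The lowest count with a library left out came without shDDX41 #2 D, where 16.5% of all tested genes were called. No share of all genes is given for an adjusted p under 0.01, so those counts lack a background. THOC2 was not called between the hairpins with upper quartile factors (edgeR adjusted p = 0.0562). The cause of these changes was not tested.

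Among differences that were not called, that of RNASEH1 with shDDX41 #1 turned to 0.0589 with upper quartile factors and ranged from -0.0638 to 0.0190 with 1 library left out. That of RNASEH2C with shDDX41 #2 turned from -0.0002 to 0.0078 with DESeq2 size factors, 0.0334 with upper quartile factors, 0.0076 with no filter, 0.0053 with at least 10 counts in every library, 0.0078 with the DESeq2 Wald test, 0.0022 with limma voom, 0.0044 with the replicate block and 0.0076 with only the 6 libraries compared, and ranged from -0.0519 to 0.0576 with 1 library left out. That of TOP1 between the hairpins ranged from -0.0073 to 0.0733 with 1 library left out. With the replicate letter as a block, 6, 3 and 4 of the 9 genes were called in the 3 comparisons, the added one being THOC1 with shDDX41 #1 (edgeR adjusted p = 0.0492). Of all tested genes, 50.0%, 28.1% and 51.2% were called with the block. The letters were not taken to pair libraries in the main fit. Of 9 same-letter correlations of deviations, 2 were over 0.1 (range -0.06 to 0.24), against 0 of 18 with other letters (range -0.18 to 0.07). For A, B and D, sh-Control with shDDX41 #1 gave 0.07, 0.16 and 0.24, and sh-Control with shDDX41 #2 gave 0.02, -0.06 and -0.01. Whether the letters pair libraries of sh-Control and shDDX41 #1 is not settled by these values.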
